A study of Homo sapiens with 12 samples.

Results

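Degron (-) cells of the human pancreatic carcinoma line PANC-1 were compared at 48 h and at 30 h with a dose of 4 Gy, as 2 libraries at each time, which are 4 of the 12 RNA-seq libraries of the study. All 12 libraries came from PANC-1 cells that carry a retroviral reporter, in which ZsGreen, a green fluorescent protein, is joined to the ornithine decarboxylase degron. The proteasome recognises this degron and degrades the protein, so that fluorescence builds up where proteasome activity is low. By the study's methods, degron (-) cells were the reporter line as made, in which few cells were ZsGreen positive, and degron (++) cells were the brightest cells sorted from a line enriched for ZsGreen, and these methods describe no step of single-cell cloning. Cells were exposed to gamma rays in a culture flask. Degron (-) cells were also sequenced at 48 h and 0 Gy (2 libraries), and degron (++) cells in the same 3 conditions (2 libraries each). No unirradiated 30 h group was analysed here, so the time since irradiation and the time in culture cannot be told apart. The labels give the hours without their starting point, and they do not say whether the 2 libraries of a group came from separate cultures, so p-values measure the spread between these libraries, which may be technical.

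The response of a cell to ionising radiation unfolds over hours to days. Double-strand breaks activate the kinases ATM and ATR, which hold cells at the G1/S and G2/M checkpoints while breaks are repaired. Later phases of the response known in carcinoma cells include interferon signalling set off by DNA in the cytosol, secretion of cytokines and proteases, and changes of epithelial state.

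The titles call the 4 libraries ZsGreen negative, whereas their short descriptions begin with d+, and the study also made a line it calls degron (+). They are called degron (-) here after the titles. The defining markers of the labelled cell type were present, since the 5 epithelial keratin and EPCAM genes listed for pancreatic carcinoma summed to FPKM of 4220 to 4370 at 30 h and 4980 to 5120 at 48 h (FPKM, fragments scaled to transcript length and library size, is the deposited unit). Markers of acinar, endocrine and endothelial cells stayed at a summed FPKM of at most 0.324. The fibroblast markers summed to 37.2 in both libraries at 30 h and to 40.1 to 40.7 at 48 h, nearly all of it COL1A1, with COL1A2 and DCN listed at 0. The leukocyte markers summed to 154 to 166, nearly all of it CD68, with PTPRC between 0 and 0.017. PANC-1 is known for a homozygous deletion at 9p21 that removes CDKN2A, yet CDKN2A had FPKM of 12.4 and 11.04 at 30 h and 21.1 and 19.1 at 48 h. The same gene had 18.8 and 15.2 in unirradiated degron (-) cells and 103 and 100.4, 105 and 112, and 108 and 103 in the 3 pairs of degron (++) libraries. CDKN2A therefore moved with time in the same direction as the genes high in degron (++) cells described below, and its part in those results was not tested. The 4 libraries were of similar estimated depth, of 0.948 to 1.11 times that of the first 30 h library, as read from the smallest FPKM steps. Each such estimate rests on the 90 to 102 genes at the commonest step, of 446 to 468 compared. The number of fragments in each library is unknown, and so is the counting precision of low values. MIR622, a single microRNA feature, took 22.5% to 23.3% of the summed FPKM at 30 h and 25.5% to 27.1% at 48 h.

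Of 12203 genes with FPKM of at least 1 in 2 or more of the 4 libraries, 970 passed an adjusted p of 0.05 between 48 h and 30 h in degron (-) cells, which is 7.95% (limma on log2(FPKM + 1)). Of these, 797 genes rose (6.53%) and 173 fell (1.42%). Rises made up 82.2% of the genes past the threshold, and 69.1% after quantile normalization. The changes were mostly small, with a median log2 fold change of 0.41 among rises and -0.28 among falls, and 25 genes rose and 4 fell by at least 1 on this scale. In all 970 genes the 2 libraries of one time lay above the 2 of the other, as they did in 55.3% of all genes tested. Of the rises, 49 had FPKM under 1 in both 30 h libraries, and of the falls 13 had it in both 48 h libraries, so these entered the test only through the time at which they are high and had to differ. The count was lower with fewer libraries. It was 298 without the second 48 h library, 393 without the first 30 h library and 550 without the second, and 298 in a fit of the 4 libraries alone. Log2 fold changes below are on the log2(FPKM + 1) scale, which understates the change of low genes, and are 48 h over 30 h in degron (-) cells at 4 Gy unless stated.

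KRT13, a type I keratin of non-cornified stratified epithelium, had the largest rise among genes detected in all 4 libraries. Its FPKM was 1.33 and 2.47 at 30 h and 6.38 and 8.89 at 48 h, a log2 fold change of 1.59 (SE 0.23, adjusted p = 0.00298, limma), where SE is the standard error. Unirradiated degron (-) cells at 48 h had 4.95 and 2.83, between the values of the 2 times. ELF3, an epithelial ETS factor, went from 3.05 and 3.38 to 8.603 and 10.9, a log2 fold change of 1.35 (SE 0.10, adjusted p = 0.000153, limma). The other leading rises included several surface and secreted proteins. PSCA, a glycosylphosphatidylinositol-anchored antigen of pancreatic carcinoma, had FPKM of 1.55 and 1.34 at 30 h and 5.08 and 5.26 at 48 h. FOLR1, the folate receptor alpha, had 4.07 and 5.42 and then 12.7 and 12.4. LY6D, a surface protein of stratified epithelium related to PSCA, had 1.99 and 1.68 and then 5.26 and 5.802. These 3 log2 fold changes were 1.34, 1.25 and 1.20 (adjusted p = 0.00181, 0.00102 and 8.5e-05, limma).

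CGA, the common alpha subunit of the glycoprotein hormones, was the most abundant of the leading rises, with FPKM of 67.3 and 72.8 at 30 h and 143 and 186 at 48 h. Unirradiated cells had 106 and 96.6, again between the 2 times. S100A9, a subunit of calprotectin, had 6.204 and 7.22 at 30 h, 16.7 and 17.2 at 48 h and 15.2 and 14.6 without irradiation, so that its unirradiated level was close to that at 48 h. LCN2, the siderophore-binding lipocalin, had 26.2 and 25.8 at 30 h, 47.5 and 61.6 at 48 h and 27.2 and 26.8 without irradiation, so that its unirradiated level was close to that at 30 h. The long non-coding RNA UCA1 behaved like LCN2, with 17.6 and 15.1 at 30 h, 37.8 and 38.7 at 48 h and 21.9 and 20.3 without irradiation. DIO2, a deiodinase that activates thyroid hormone, had FPKM of 17.5 and 18.2 and then 39.2 and 44.1 (log2 fold change 1.18 (SE 0.07, adjusted p = 4.59e-05, limma)). TFF1, NMU, CRB3, LETM2 and the histone gene HIST1H2BG completed the 15 largest rises. Their log2 fold changes lay between 1.02 for LETM2 and 1.22 for HIST1H2BG. CRB3, TFF1, NMU and HIST1H2BG lost the call under at least 1 alternative, and the other 11 kept it under every alternative that tested them.

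**Figure D1:**
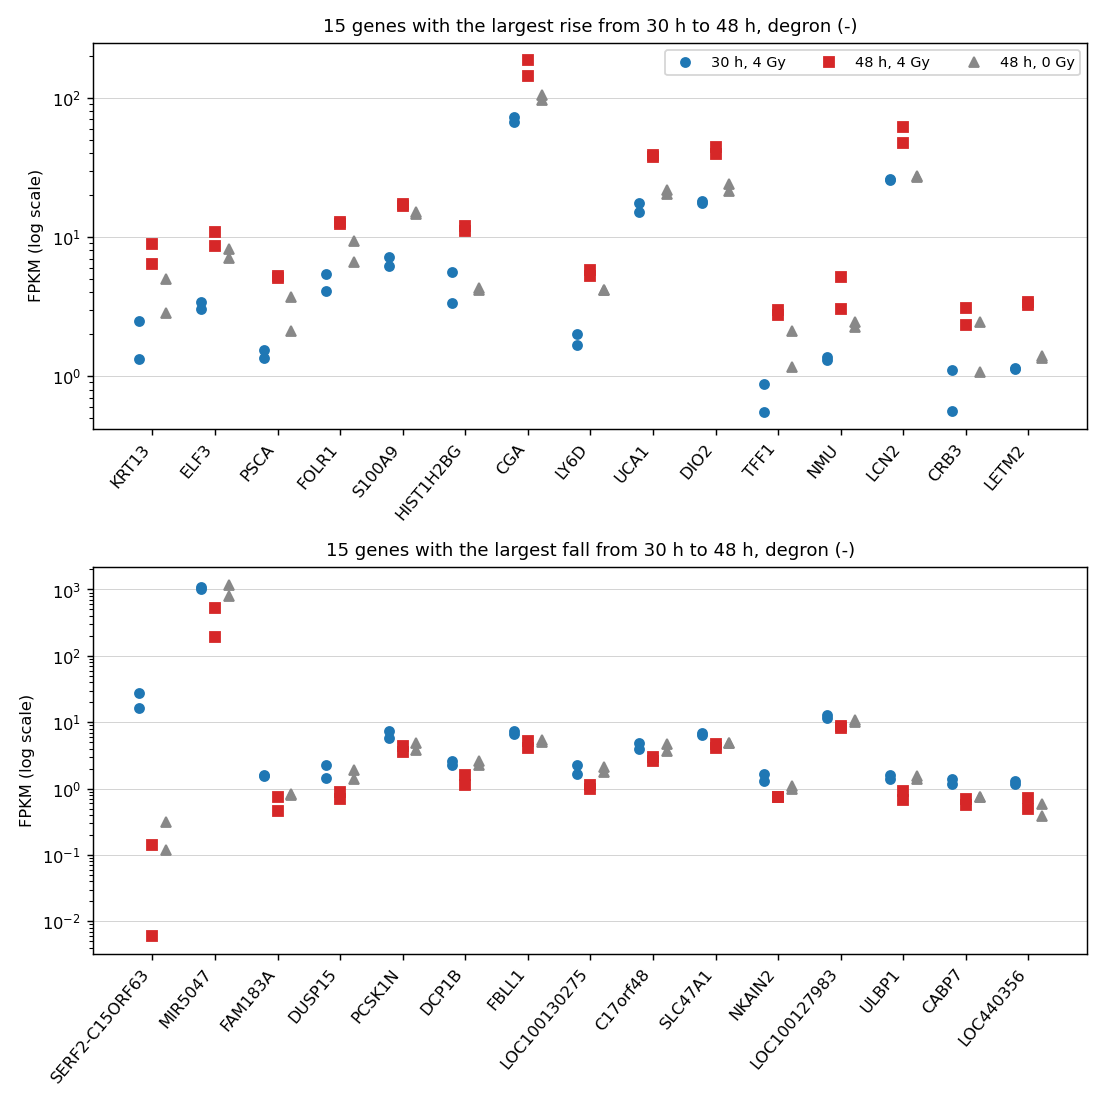
FPKM on a log axis of the 15 genes with the largest rise (top) and the 15 with the largest fall (bottom) in degron (-) cells, with 2 points per group for 30 h at 4 Gy (circles), 48 h at 4 Gy (squares) and 48 h at 0 Gy (triangles). The squares lie above the circles for every gene of the top panel and below them for every gene of the bottom panel, because the rule chose genes without overlap, and the triangles lie between or near either time depending on the gene.

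Genes of epithelial adhesion and identity rose together. Of 38 junction, polarity and epithelial regulator genes listed, 34 were tested, 22 rose, none fell by the same limma test, and 29 had a positive log2 fold change. The median over the 34 was 0.39, beside -0.0023 over all genes tested, of which 6.53% rose. Of the 22 rises, 21 were genes higher in degron (++) than in degron (-) cells by more than 1 (log2) at 0 Gy. The same was true of 27 of the 34 tested. CDH1, the E-cadherin of adherens junctions, had FPKM of 6.56 and 6.79 at 30 h and 11.7 and 12.8 at 48 h, with 8.36 and 7.69 in unirradiated cells. Its log2 fold change was 0.79 (SE 0.05, adjusted p = 7.84e-05, limma). The P-cadherin CDH3 went from 3.16 and 3.13 to 6.46 and 6.85. EPCAM, an epithelial surface adhesion molecule, went from 29.9 and 31.9 to 44.8 and 52.8. Desmoplakin, which anchors keratin to desmosomes, is encoded by DSP and went from 7.97 and 7.97 to 12.9 and 12.9. The log2 fold changes were 0.88 for CDH3, 0.64 for EPCAM and 0.63 for DSP (adjusted p = 0.000672, 0.000569 and 0.000237, limma). Transcription and splicing regulators of the epithelial state moved as well. GRHL2, which activates CDH1 and claudin genes, had 4.07 and 3.66 at 30 h and 6.79 and 8.17 at 48 h. OVOL1, a repressor of mesenchymal genes, had 0.813 and 0.739 and then 2.07 and 2.58. ESRP1, an epithelial splicing factor, had 5.86 and 5.65 and then 9.02 and 11.1. All 3 rose, with log2 fold changes of 0.80, 0.90 and 0.70 (adjusted p = 0.000541, 0.00146 and 0.000677, limma), although OVOL1 passed the filter only through its 48 h libraries.

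The mesenchymal list did not move the other way. Of 28 tested members of 40, 5 rose and none fell, with a median of 0.07. VIM, the intermediate filament protein vimentin, had FPKM of 2709 and 2711 at 30 h and 2529 and 2376 at 48 h (log2 fold change -0.14 (SE 0.07, adjusted p = 0.233, limma)). ZEB1, a repressor of CDH1, had 9.84 and 9.14 and then 8.37 and 8.29 (log2 fold change -0.17 (SE 0.07, adjusted p = 0.174, limma)). Both were lower in each 48 h library than in each 30 h library, but neither passed the threshold. Without the second 48 h library 3 members rose. The 5 that rose with it were LUM, CDH2, SNAI2, FN1 and THBS1, and LUM passed the filter only through its 48 h libraries. CDH2, the N-cadherin, went from 4.74 and 5.16 to 8.43 and 9.68, and SNAI2, the repressor also known as Slug, from 8.14 and 7.44 to 11.8 and 13.5 (log2 fold changes 0.76 and 0.63, adjusted p = 0.000721 and 0.00114, limma). All 5 had a level higher in degron (++) than in degron (-) cells by more than 1 (log2) at 0 Gy.

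Keratins, basement membrane components and epithelial proteases followed the junction genes. Of 27 keratin genes 9 were tested and 4 rose, KRT13, KRT7, KRT81 and KRT15, with none falling. The number was 2 to 6 over the alternatives and 2 without the first 30 h library, and KRT15 kept its call in 5 of 14. KRT7, a keratin of simple ductal epithelium, went from FPKM of 133 and 144 to 233 and 273 (log2 fold change 0.86 (SE 0.09, adjusted p = 0.000606, limma)). Of 33 laminin, integrin and collagen IV genes 23 were tested, 10 rose and none fell. Among them were LAMA3 and LAMB3, whose products are chains of the laminin that anchors hemidesmosomes. LAMA3 had 21.1 and 23.3 at 30 h and 38.8 and 42.8 at 48 h. LAMB3 had 18.6 and 19.97 and then 36.9 and 42.02. Their log2 fold changes were 0.85 and 0.99 (adjusted p = 7.46e-05 and 7.46e-05, limma). Unirradiated cells had 20.9 and 18.9 for LAMB3, near the 30 h libraries and below both 48 h libraries. ITGB4, which binds this laminin, and ITGB6, an epithelial integrin that activates latent TGF-beta, rose by 0.74 and 0.83 (adjusted p = 0.00219 and 0.000711, limma). Of the 10 rises in the laminin list 9 were genes higher in degron (++) cells by more than 1 at 0 Gy. The same was true of 3 of the 4 keratin rises. Such genes made up 9 of 23 tested in the laminin list and 3 of 9 tested keratins. Over all genes tested 6.53% rose.

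Of 30 epithelial serine proteases and inhibitors 16 were tested, 10 rose and none fell, with a median log2 fold change of 0.60. ST14, the membrane protease matriptase, went from 12.6 and 14.3 to 24.5 and 27.1, and its inhibitor SPINT1 from 7.92 and 8.14 to 13.6 and 14.6 (log2 fold changes 0.90 and 0.74, adjusted p = 0.000297 and 0.000153, limma). SLPI, the secretory leukocyte protease inhibitor, went from 31.4 and 34.998 to 55.4 and 71.9. Of the 10 protease and inhibitor rises 9 were genes higher in degron (++) cells by more than 1 at 0 Gy. Such genes made up 10 of the 16 tested, and 6.53% of all genes tested rose. Of 27 mucin and secreted defence genes 10 were tested, 7 rose and none fell, with a median of 0.76. Besides S100A9, LCN2 and TFF1 these were the complement component C3 (18.1 and 21.3, then 34.3 and 38.8), WFDC2, MUC4 and MUC1, of which TFF1 and MUC4 passed the filter only through the 48 h libraries. All 7 rises of this list were genes higher in degron (++) cells by more than 1 at 0 Gy, as were 8 of 10 tested. Over the alternatives the number of rising genes was 13 to 22 in the junction list, 6 to 11 in the protease list and 3 to 8 in the mucin and defence list. The numbers without the second 48 h library were 13, 6 and 3, and the mucin and defence list had 4 without the first 30 h library.

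**Figure D2:**
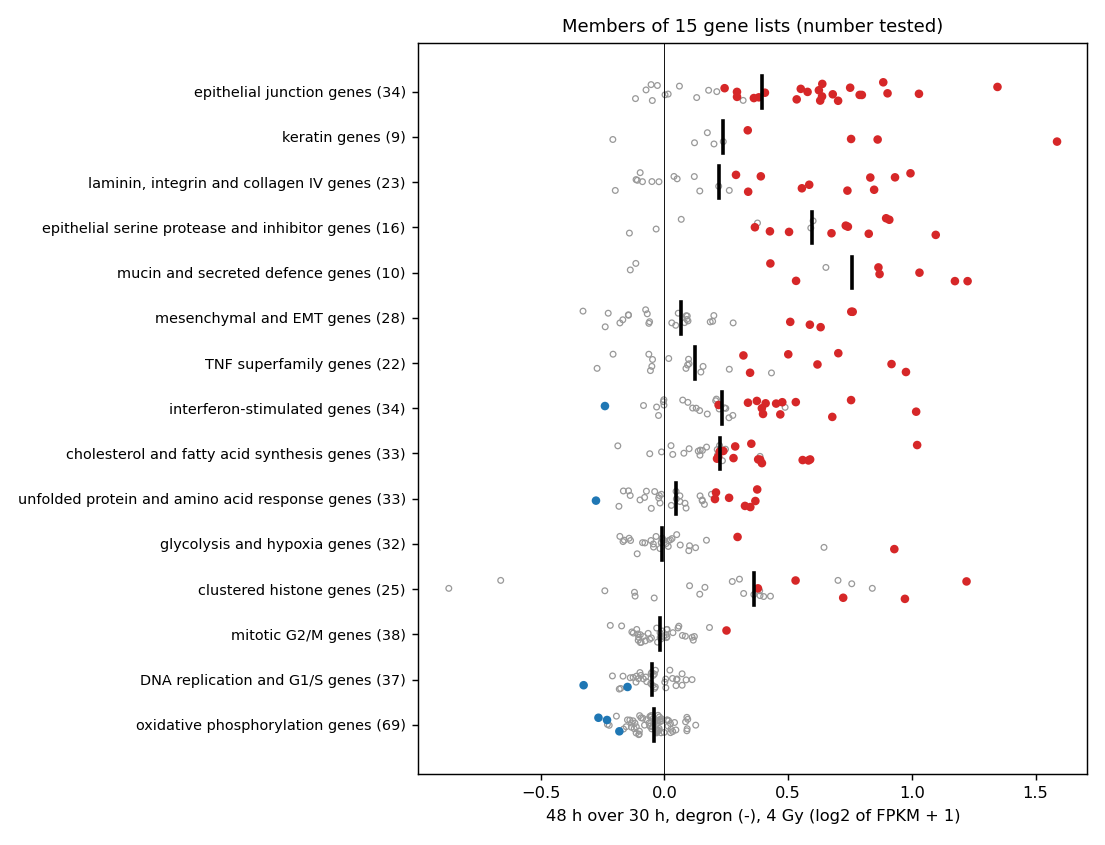
Log2 fold change from 30 h to 48 h in degron (-) cells at 4 Gy for each tested member of 15 gene lists, with filled points past the threshold, open points not past it, and a black bar at the list's median. Medians of the epithelial lists lie between 0.22 and 0.76, and those of the G2/M, G1/S and oxidative phosphorylation lists lie between -0.05 and -0.02.

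The rises were compared with the difference between the populations, using the 0 Gy libraries of both, which enter the comparison of times only through the shared estimate of the spread. Of the 797 rises, 592 (74.3%) were genes higher in degron (++) than in degron (-) cells by more than 1 (log2) at 0 Gy, a class that holds 9.39% of the tested genes. Of the 173 falls, 103 (59.5%) were lower in degron (++) cells by more than 1, a class that holds 14.3%. The share of rises went up with the difference. It was 0.836% among 4068 genes within 0.3 of an equal level, 6.48% between 0.3 and 1, 42.4% between 1 and 2 and 80.1% of 281 genes above 2. In the last class the median log2 fold change was 0.64 in degron (-) cells and 0.06 in degron (++) cells. Among genes lower in degron (++) cells by more than 2, 9.87% fell and 0.334% rose.

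A set of 369 genes was taken with FPKM of at least 5 in both unirradiated degron (++) libraries and at least 4 times the higher degron (-) library at 0 Gy. Relative to their mean level in unirradiated degron (++) cells, the median of the 369 was 11.6% and 12.4% in the degron (-) libraries at 30 h, 19.5% and 22.2% at 48 h and 16.4% and 14.8% at 48 h without irradiation. Both 30 h libraries were therefore lowest, both irradiated 48 h libraries highest, and the unirradiated libraries between them, although the set was chosen on the unirradiated libraries, so that their place in this order is a description. In degron (++) libraries the same median stayed between 94.2% and 101%. In 334 of the 369 genes both 48 h libraries exceeded both 30 h libraries, and in none were both lower. Over all 12203 genes tested the libraries of the 2 times did not overlap in 55.3%, counting either direction. Summed over the set, FPKM was 2664.0 and 2887.3 at 30 h, and 4601.7 and 5239.7 at 48 h. Of the 324 members that passed the filter on low values 256 rose (79%, beside 6.53% of all genes tested), and 45 members were not tested. A set of 539 genes chosen the same way for degron (-) cells had a median level of 107% in both 30 h libraries, 97.1% and 93.8% at 48 h, and 99.1% and 101% without irradiation. Of its 538 tested members 54 fell (10%, beside 1.42% of all genes tested) and none rose. In 381 of the 539 both 48 h libraries lay below both 30 h libraries, and in 23 both lay above. The share without overlap over all genes, in either direction, is the 55.3% given above. In such bulk libraries fewer cells of a kind and less RNA per cell cannot be told apart.

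**Figure D3:**
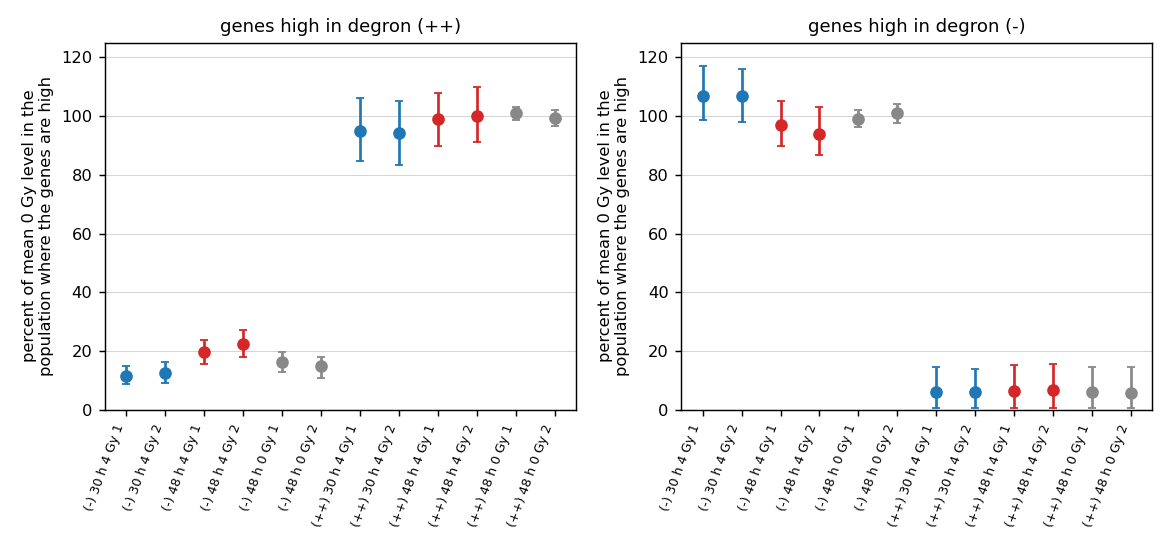
Median over the genes (points) and quartiles (bars) of the level in each of the 12 libraries, in percent of the mean unirradiated level in the population where the genes are high, for 369 genes high in degron (++) cells (left) and 539 genes high in degron (-) cells (right). On the left the degron (-) libraries rise from 11.6% and 12.4% at 30 h to 19.5% and 22.2% at 48 h, and on the right they go from 107% to 97.1% and 93.8%.

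**Figure D4:**
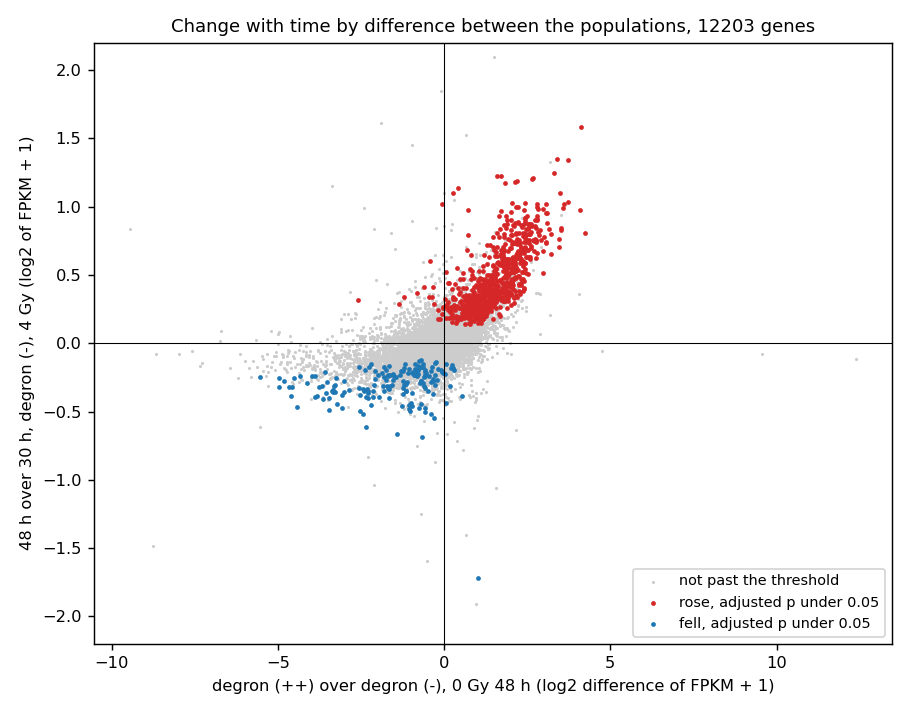
Log2 fold change from 30 h to 48 h in degron (-) cells at 4 Gy (vertical) against the log2 difference between degron (++) and degron (-) cells at 0 Gy (horizontal) for 12203 genes, of which 31 lie beyond the vertical range and 7 of those passed the threshold. Rises (red) gather on the right and falls (blue) on the left.

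Of the 10 genes the study names as highest in degron (++) cells, only MMP12, KRT13 and TNFRSF11B reached the filter on low values, and all 3 rose, MMP12 having passed it only through its 48 h libraries. These genes were chosen by the study on libraries of this series and are no independent evidence of a direction. MMP12, the macrophage elastase, had FPKM of 0.662 and 0.848 at 30 h and 1.75 and 2.43 at 48 h. TNFRSF11B, the decoy receptor osteoprotegerin, had 5.204 and 7.28 and then 11.8 and 14.6, with 5.12 and 3.83 in unirradiated cells. The other 7 were below 1 in all 4 libraries. COL4A4 had 0.218 and 0.287 and then 0.575 and 0.733, STEAP4 0.274 and 0.248 and then 0.494 and 0.628, and MUC16 0.177 and 0.198 and then 0.417 and 0.536. TMPRSS3, TMEM125 and TJP3 were also higher in both 48 h libraries, whereas PSG5 overlapped between the times. The 3 genes of 9p21 rose. CDKN2A, whose values are given above, had a log2 fold change of 0.73 (SE 0.09, adjusted p = 0.00157, limma). CDKN2B went from 0.907 and 1.07 to 2.14 and 2.83 and MTAP from 2.83 and 3.28 to 5.001 and 4.87 (log2 fold changes 0.80 and 0.55, adjusted p = 0.00202 and 0.00196, limma).

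A smaller number of genes changed without a difference between the populations at 0 Gy, or against it. Of the 4068 genes within 0.3 of an equal level, 34 rose and 17 fell, 1.25% in all. A further 10 genes are among the rises although they were lower in degron (++) cells by more than 0.3, and 4 are among the falls although they were higher. OASL, an interferon-induced relative of the oligoadenylate synthetases, was among those of equal level. It had FPKM of 2.25 and 2.89 at 30 h, 5.33 and 7.17 at 48 h and 2.46 and 2.18 without irradiation, while its degron (++) libraries lay at 2.57 and 2.87 at 30 h and 2.96 and 2.6 at 48 h. Its log2 fold change was 1.02 (SE 0.13, adjusted p = 0.00173, limma) and differed from that in degron (++) cells by 0.99 (adjusted p = 0.0223, limma). PI3, the elastase inhibitor elafin, had 0 and 0.241 and then 1.44 and 1.33, and passed the filter only through the latter. CPA4, a carboxypeptidase, had 3.52 and 3.79 at 30 h, 5.17 and 6.22 at 48 h and 3.15 and 2.91 without irradiation. Both PI3 and CPA4 were of like level only at 0 Gy. At 30 h and 4 Gy the degron (++) libraries were higher, with 1.951 and 2.189 for PI3 and 6.43 and 5.675 for CPA4. NEAT1, the scaffold RNA of paraspeckles, went from 81.5 and 74.3 to 107 and 105 in degron (-) cells and from 85.5 and 77.2 to 137 and 123 in degron (++) cells, and passed the threshold in both (log2 fold changes 0.44 and 0.67, adjusted p = 0.00838 and 0.00696, limma). Against the population difference rose the collagen genes COL7A1 (14.6 and 13.97, then 18.02 and 17.3) and COL11A1 (4.23 and 4.19, then 5.56 and 5.42), the endothelial lipase gene LIPG and SAT1, the rate-limiting enzyme of polyamine catabolism. Of 14 alternatives COL7A1 and COL11A1 each kept the call in 5, SAT1 in 6 and LIPG in 10. These genes were named after their values were seen.

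Part of the interferon-stimulated genes rose. Of 45 listed, 34 were tested, 13 rose and IFITM2 alone fell, and 27 had a positive log2 fold change, with a median of 0.23. Over all genes tested 6.53% rose and 1.42% fell, with a median of -0.0023. In degron (++) cells 2 of the 34 list members rose, with a median of 0.07, beside 0.697% of all genes tested. Interferon signalling ends in the complex that holds STAT2 and IRF9 and binds the interferon-stimulated response element upstream of such genes. The core of this element, written GAAANNGAAA and searched on both strands in the 250 bases before each RefSeq start (GRCh38.p14), was found in 3.02% of all 35116 promoter windows. Counted per gene over all its windows, it was found in 3.16% of the 8616 tested genes with a promoter. It was found in 7 of the 11 rising genes of this list that have a RefSeq promoter here and in 9 of the 14 tested members that did not rise, so its presence did not separate them. Only windows with at least 2 matches were kept for printing. The windows of 4 rising genes are shown for where the element lies, with matches in capitals, some of which overlap each other.
ISG15, chr1:1013369-1013414, plus strand: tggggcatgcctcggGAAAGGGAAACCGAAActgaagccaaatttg
IFIT3, chr10:89327826-89327899, plus strand: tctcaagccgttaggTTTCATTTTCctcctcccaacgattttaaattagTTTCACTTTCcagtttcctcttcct
BST2, chr19:17405730-17405775, minus strand: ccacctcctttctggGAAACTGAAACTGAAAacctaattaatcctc
HERC5, chr4:88456979-88457069, plus strand: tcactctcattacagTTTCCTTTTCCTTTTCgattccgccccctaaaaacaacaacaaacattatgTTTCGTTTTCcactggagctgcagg

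Of the 4 genes whose windows are printed, ISG15, the ubiquitin-like modifier, was the most abundant, with FPKM of 76.5 and 74.9 at 30 h, 104 and 106 at 48 h and 91.8 and 82.2 without irradiation. IFIT3, an RNA-binding antiviral protein, had 7.45 and 7.96, then 10.97 and 11.2, and 6.88 and 6.87 without irradiation. BST2, the membrane protein tetherin, had 17.3 and 18.2, then 25.5 and 33, and 26.3 and 22.7 without irradiation. Their log2 fold changes were 0.47, 0.48 and 0.68 (adjusted p = 0.0011, 0.00114 and 0.00481, limma). Each also differed from its change in degron (++) cells, by 0.43, 0.48 and 0.85 (adjusted p = 0.0205, 0.0149 and 0.0182, limma). HERC5, the ligase that attaches ISG15, passed the filter only through its 48 h libraries, at 0.931 and 0.629 and then 1.44 and 1.27. It kept its call in 3 of the 11 alternatives that tested it. IFIT2 rose in both populations, from 9.55 and 9.39 to 13.7 and 14.6 in degron (-) cells and from 14.9 and 13.2 to 20.03 and 19.7 in degron (++) cells. STAT2, IRF7 and IRF9 did not pass the threshold, and the interferon gene IFNB1 was listed at 0 in all 12 libraries. IFITM2, a membrane restriction factor, went from 163 and 174 to 144 and 142 in degron (-) cells and from 43.6 and 45.5 to 51.9 and 56.7 in degron (++) cells, opposite directions with a difference of -0.52 (adjusted p = 0.0095, limma). Of the 13 rises 7 were genes higher in degron (++) cells by more than 1 at 0 Gy, as were 9 of 34 tested. The count of rises ranged from 5 to 14 over the alternatives.

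Part of the genes of cholesterol and fatty acid synthesis rose in degron (-) cells, and fewer passed the threshold in degron (++) cells. Of 35 listed, 33 were tested, 14 rose in degron (-) cells and none fell, with a median of 0.22, and 5 rose in degron (++) cells, with a median of 0.16. Over all genes tested 6.53% rose in degron (-) and 0.697% in degron (++) cells. Of the 14 rises 10 were genes higher in degron (++) cells by more than 1 at 0 Gy. The same was true of 11 of the 33 tested. ELOVL6, which elongates saturated fatty acids, had FPKM of 3.27 and 3.19 at 30 h, 5.17 and 5.55 at 48 h and 4.497 and 3.72 without irradiation, a log2 fold change of 0.59 (SE 0.08, adjusted p = 0.0024, limma) that differed from that in degron (++) cells by 0.55 (adjusted p = 0.0322, limma). HMGCS1, which makes the precursor of mevalonate, went from 21.2 and 23.8 to 31.6 and 35.7. SREBF1, the sterol-regulated transcription factor of lipid synthesis, went from 10.9 and 11.7 to 16.5 and 18.3 in degron (-) cells and from 31.2 and 28.4 to 49.8 and 59.6 in degron (++) cells. Its unirradiated libraries had 24.3 and 17.7 in degron (-) cells, which overlap the irradiated 48 h libraries. In degron (++) cells they were higher still, at 68.9 and 75.7. The log2 fold changes of SREBF1 were 0.58 (SE 0.14, adjusted p = 0.0317, limma) in degron (-) and 0.85 (adjusted p = 0.0244, limma) in degron (++) cells. The count of rises in degron (-) cells ranged from 3 to 15 over the alternatives, with 3 without the second 48 h library, 4 without the first 30 h library, and 8 and 9 without the first 48 h and the second 30 h library.

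Amino acid and unfolded protein response genes differed between the 2 populations. Of 33 tested members of 34, 7 rose and 1 fell in degron (-) cells, beside 6.53% and 1.42% of all genes tested. Of these 7 rises 6 were genes higher in degron (++) cells by more than 1 at 0 Gy, as were 11 of 33 tested. In degron (++) cells 7 members fell and none rose, beside 0.606% and 0.697% of all genes tested. Over all genes the calls in degron (++) cells went from 159 to 47 after TPM rescaling, a limit on these 7 falls. The difference between the populations in the change with time passed the threshold, with a higher value in degron (-) cells, for 3.11% of all genes tested. This difference of changes passed the threshold for 9 genes, all with a higher value in degron (-) cells, and the number of rises in degron (-) cells was 1 to 8 over the alternatives, with 2 without the second 48 h library and 3 without the first 30 h library. STC2, a secreted glycoprotein induced by ATF4, had FPKM of 25.7 and 26.1 at 30 h and 30.6 and 31.95 at 48 h in degron (-) cells, against 97.7 and 95.1 and then 65.6 and 64.5 in degron (++) cells. Its difference was 0.82 (adjusted p = 0.000293, limma). ATF4, the transcription factor of the integrated stress response, went from 128 and 133 to 158 and 174 in degron (-) cells and from 379 and 378 to 359.6 and 391 in degron (++) cells, a difference of 0.36 (adjusted p = 0.0308, limma). HSPA5, the main chaperone of the endoplasmic reticulum, went from 187 and 187 to 213 and 218 (log2 fold change 0.20 (SE 0.03, adjusted p = 0.00397, limma)). ASNS, asparagine synthetase, fell in degron (++) cells from 91.2 and 98.3 to 60.5 and 60.6 and had 54.3 and 55.1 and then 48.2 and 47.9 in degron (-) cells, so its difference of 0.45 (adjusted p = 0.0172, limma) came with a negative log2 fold change in both. Of 32 tested glycolysis and hypoxia genes, SLC2A3 and SLC2A1 rose in degron (-) cells, a share of 6.25% beside 6.53% of all genes. In degron (++) cells 7 of the 32 fell, beside 0.606% of all genes. The difference of changes passed the threshold for 6 of the 32, all with a higher value in degron (-) cells, beside 3.11% of all genes. The glucose transporter gene SLC2A3 went from 4.76 and 4.305 to 8.87 and 10.2 in degron (-) cells (log2 fold change 0.93 (SE 0.07, adjusted p = 0.000135, limma)).

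**Figure D5:**
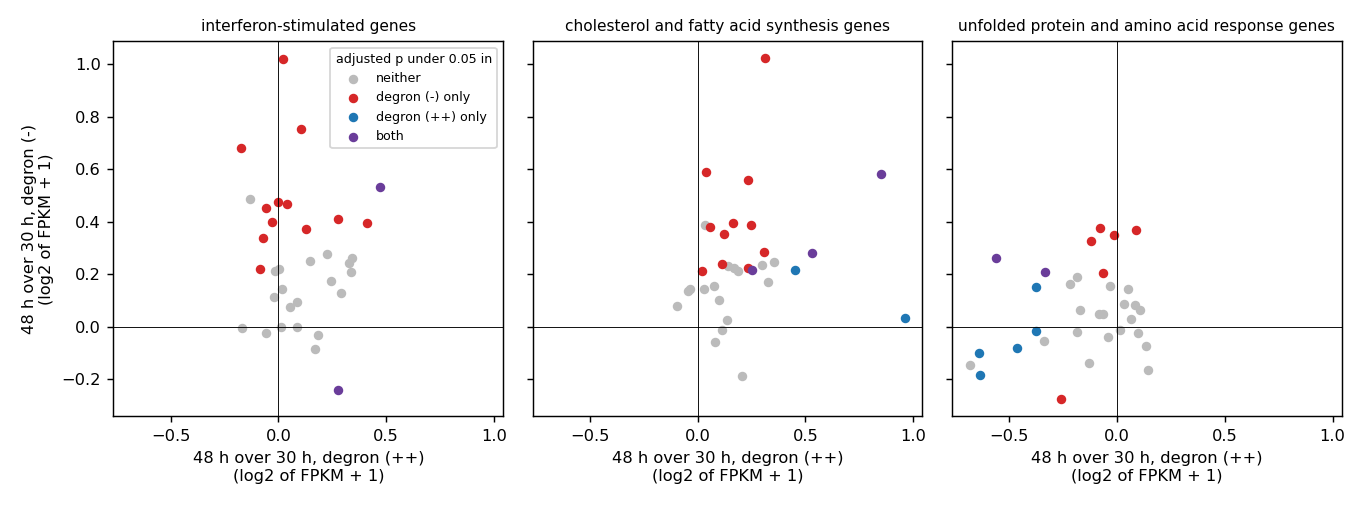
Log2 fold change from 30 h to 48 h at 4 Gy in degron (-) cells (vertical) against that in degron (++) cells (horizontal) for the members of 3 lists, coloured by where they passed the threshold. Most interferon-stimulated points lie above 0 on the vertical axis, the lipid synthesis points lie mostly above 0 on both axes, and the 7 amino acid response genes past the threshold in degron (++) cells lie left of 0.

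Secreted factors and their receptors were a further group, to be read beside the 6.53% of all genes tested that rose and the 1.42% that fell. Of 32 genes of the senescence-associated secretory list 23 were tested, 8 rose and none fell, with a median of 0.31. All 8 were genes higher in degron (++) cells by more than 1 at 0 Gy, as were 10 of the 23 tested. The count was 4 to 9 over the alternatives, with 4 without the second 48 h library and 5 without the first 30 h library. IL6 had FPKM of 4.85 and 5.12 at 30 h, 8.003 and 10.7 at 48 h and 4.3 and 4.55 without irradiation, so the unirradiated libraries lay below both times (log2 fold change 0.78 (SE 0.13, adjusted p = 0.00723, limma)). IGFBP3, which binds insulin-like growth factors, went from 6.23 and 5.67 to 11.6 and 14.8. F3, the tissue factor that starts coagulation, went from 64.6 and 66.99 to 111 and 120.4, with 77.2 and 78.4 without irradiation (log2 fold change 0.80 (SE 0.04, adjusted p = 2.88e-05, limma)). Of 28 TNF superfamily genes 22 were tested, 7 rose and none fell, with 3 to 7 rises over the alternatives and 4 when either 48 h library was left out. LTBR, the lymphotoxin receptor, went from 10.6 and 11.1 to 19.8 and 23.05 (log2 fold change 0.92 (SE 0.08, adjusted p = 0.000297, limma)). Of 11 tested ERBB receptors and ligands 3 rose, ERBB3, TGFA and EREG, and the feedback inhibitor ERRFI1 fell. ERRFI1 kept its call in 5 of 14 alternatives, and its log2 difference of degron (++) over degron (-) cells at 0 Gy was -2.07. ERBB3, the kinase-impaired partner of ERBB2, went from 3.14 and 4.22 to 8.203 and 8.66 (log2 fold change 1.02 (SE 0.10, adjusted p = 0.000541, limma)). Of 28 tested TGF-beta and BMP genes 5 rose, with a median of -0.04. Among these were the ligand genes INHBA (12.4 and 13.4, then 21.8 and 23.3) and BMP4 (3.88 and 4.14, then 7.07 and 8.39). Of the 7 TNF superfamily rises 6 were genes higher in degron (++) cells by more than 1 at 0 Gy. The same was true of all 3 ERBB rises and of 4 of the 5 TGF-beta and BMP rises. Such genes made up 7 of 22 TNF superfamily, 6 of 11 ERBB and 4 of 28 TGF-beta and BMP genes tested. DUSP4, a phosphatase of nuclear MAP kinases, and KLF4, a zinc-finger factor of differentiating epithelium, rose by 0.93 and 0.72 (adjusted p = 0.000132 and 0.00288, limma).

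The listed genes of DNA repair and the cell cycle passed the threshold at shares near or below the 7.95% of all genes tested. The shares were 2.63% of G2/M, 5.41% of replication and G1/S, and 8.57% of repair and damage signalling genes. PLK2, a polo-like kinase, went from 66.4 and 69.8 to 85.1 and 92.4, and SESN2, a stress-induced sestrin, from 6.798 and 6.67 to 5.304 and 5.47 (log2 fold changes 0.38 and -0.28, adjusted p = 0.0024 and 0.045, limma), and SESN2 kept its call in 3 of 14 alternatives. CDKN1A, the cyclin-dependent kinase inhibitor p21, had FPKM of 75.8 and 74.8 at 30 h, 66.95 and 61.6 at 48 h and 64.1 and 59.7 without irradiation (log2 fold change -0.23 (SE 0.09, adjusted p = 0.155, limma)). MDM2 had 10.8 and 10.95 at 30 h and 11.2 and 10.05 at 48 h, which overlap. Of 38 tested G2/M genes only CDC25B, the phosphatase that activates CDK1, passed the threshold (39.3 and 40.8, then 46.6 and 48.9), with a median of -0.02. CCNB1, cyclin B1, had 218 and 214 and then 222 and 247, and MKI67 had 77.1 and 73.7 and then 72.1 and 67.7. Of 37 tested replication and G1/S genes RRM2 and RFC4 fell and none rose, with a median of -0.05. RFC4 kept its call in 5 of 14 alternatives. The log2 differences of degron (++) over degron (-) cells at 0 Gy were -1.24 for RRM2 and -0.65 for RFC4. RRM2, the regulated subunit of ribonucleotide reductase, went from 265 and 268 to 211 and 214, with 218 and 224 in unirradiated cells (log2 fold change -0.33 (SE 0.03, adjusted p = 0.000451, limma)). Among 35 tested repair and damage signalling genes DCLRE1C and BRCA1 rose and XRCC1 fell, 8.57% beside 7.95% of all genes. DCLRE1C kept its call in 2 of 13 alternatives, BRCA1 in 9 of 14 and XRCC1 in 7 of 14. Among 15 tested BCL2 family genes, 1 passed the threshold (6.67%), the BH3-only gene BIK (2.65 and 3.798, then 5.43 and 7.195). Of 69 oxidative phosphorylation subunit genes 3 fell, ATP5L, NDUFB4 and ATP5J2, which is 4.35% beside 1.42% of all genes tested. They kept the call in 8, 7 and 11 of 14 alternatives. No gene of the 69 rose, and 16 had a positive log2 fold change, with a median of -0.04. The 7 metallothionein genes tested had log2 fold changes between -0.41 and -0.0039, and none passed the threshold.

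Some clustered histone genes rose, while no tested replication or G1/S gene did. Of 69 listed 25 were tested, 5 rose and none fell (3 rose when either 48 h library was left out), with medians of 0.36 for degron (-) and 0.26 for degron (++) cells. The 5 rises are to be read beside the 6.53% of all genes tested that rose. Of them 4 were genes higher in degron (++) cells by more than 1 at 0 Gy, as were 8 of 25 tested. Histone copies are nearly identical and their main transcripts lack a poly(A) tail, so levels of single members in poly(A) libraries are uncertain. HIST1H1C, a linker histone H1 gene, had FPKM of 32.99 and 34.3 at 30 h, 48.8 and 49.3 at 48 h and 35.96 and 30.6 without irradiation. In degron (++) cells it had 114 and 106, then 156 and 153, and 96.4 and 95.2 without irradiation. The irradiated 48 h libraries were highest in both populations, where the log2 fold changes came to 0.53 (SE 0.07, adjusted p = 0.00155, limma) and 0.49 (adjusted p = 0.0135, limma). HIST1H4H had 9.497 and 6.51 at 30 h, 15.4 and 17.5 at 48 h and 3.96 and 4.11 without irradiation, so both irradiated times exceeded the unirradiated level. HIST2H2BE had 2.08 and 2.15, then 4.41 and 3.88, and 1.96 and 1.91 without irradiation.

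The falls were fewer and smaller. SLC47A1, a proton-coupled exporter of organic cations, had FPKM of 6.53 and 6.85 at 30 h and 4.76 and 4.14 at 48 h, 4.85 and 4.81 without irradiation, and 0 in all degron (++) libraries (log2 fold change -0.50 (SE 0.08, adjusted p = 0.00439, limma)). PCSK1N, an inhibitor of prohormone convertase, went from 5.88 and 7.29 to 3.53 and 4.41. DUSP15, a dual-specificity phosphatase, went from 1.46 and 2.302 to 0.892 and 0.706. DCP1B, a cofactor of mRNA decapping, went from 2.304 and 2.56 to 1.13 and 1.58, and ULBP1, a ligand of the NK cell receptor NKG2D, from 1.399 and 1.62 to 0.92 and 0.679. The Wnt pathway genes WNT11 (1.15 and 1.65, then 0.661 and 0.846) and TCF7L1 (30.5 and 31.8, then 25.02 and 24.6) also fell. DUSP15, ULBP1 and WNT11 passed the filter only through the 30 h libraries. These falls lost the call in one or more alternatives, as did each of the 15 largest. The 2 largest falls were of another kind. SERF2-C15ORF63, a readthrough transcript whose reads cannot all be told from those of its parts, was at 16.6 and 27.2 at 30 h and 0.14 and 0.006 at 48 h, while SERF2, which shares its exons, stayed at 146 and 144 and 140.5 and 140.2, and C15orf63 went from 50.5 and 35.3 to 61.8 and 59.3. MIR5047, a microRNA feature, was at 1087 and 1031 and then 196 and 527.

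Several small RNA genes were listed at 0 in a whole group, and no fold is given for them. SNORD83B was listed at 0 in both 30 h libraries and at 539.6 and 388 at 48 h, with 209 and 217 without irradiation. SNORD83A, SNORD88B, SNORA45 and SCARNA7 were likewise at 0 at 30 h and above it at 48 h. SNORD89 and SNORA60 were at 0 in both 48 h libraries, and at 134 and 47.2 and 17.1 and 17.98 at 30 h. SNORD89 had the reverse in degron (++) cells, with 0 in both 30 h libraries and 50.2 and 46.97 at 48 h. An exact 0 beside such values for short features can be a failed estimate. RMRP, the RNA of RNase MRP, went from 13.8 and 12.1 to 61.99 and 24.5 in degron (-) and from 23.9 and 48.97 to 241 and 157 in degron (++) cells, and passed the threshold only in the latter (log2 fold changes 1.53 (SE 0.42, adjusted p = 0.0573, limma) and 2.47 (adjusted p = 0.0289, limma)), and the difference between the populations did not pass it (-0.94 (adjusted p = 0.444, limma)).

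The same 2 times were compared in degron (++) cells, where 159 genes passed the threshold (1.3%), 85 higher (0.697%) and 74 lower (0.606%). The 2 comparisons share no library but share the estimate of the spread. Both used the genes that passed the filter in the degron (-) libraries. Genes expressed only in degron (++) cells were therefore not tested. Some tested genes, such as SLC47A1 and DUSP15, were at 0 in all degron (++) libraries and could not pass there, so the 2 shares are not like for like. Of the 970 genes of degron (-) cells 32 also passed in degron (++) cells, which is 3.3% of the first and 20.1% of the second, and 22 of the 32 changed in the same direction. The difference between the 2 changes passed the threshold for 453 genes (3.71%), 380 of them higher in degron (-) cells (3.11%). These included 321 of the 797 rises and 24 of the 173 falls. For CDH1 the change in degron (++) cells was 0.03 (adjusted p = 0.835, limma), from 65.7 and 64.5 to 66.6 and 66.6, and the difference was 0.76 (adjusted p = 0.00237, limma). For LAMA3 the change there was -0.16 (adjusted p = 0.203, limma) and the difference 1.01 (adjusted p = 0.000708, limma). For KRT13 the degron (++) libraries had 81.3 and 80.7 at 30 h and 108 and 112 at 48 h, and the difference of 1.15 (adjusted p = 0.0911, limma) did not pass the threshold. Among genes past the threshold the 5 largest differences in the negative direction were those of SNORD89, SNORA60, PRRX2, TM7SF2 and VMAC. TM7SF2, a sterol reductase gene, had 4.48 and 3.91 and then 8.86 and 9.32 in degron (++) cells, against 8.59 and 9.36 and 8.86 and 9.56 in degron (-) cells, a difference of -0.93 (adjusted p = 0.0107, limma). PRRX2, a homeobox gene, and VMAC differed by -0.96 and -0.86 (adjusted p = 0.0238 and 0.0232, limma).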

How the data were processed

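Total RNA was extracted with a miRNeasy kit and libraries were made with a TruSeq stranded mRNA kit, per the labels. The submitters' processing notes name TopHat2 2.1.1, Bowtie2 2.2.8, SAMtools 0.1.18 and Cuffdiff 2.2.1 with the build hg19. The authors deposited 1 file per library with FPKM for 23284 gene symbols, so a length-normalized level and no counts. The FPKM keeps no read totals, and relative depth was read from the smallest FPKM steps of genes above 0 in 3 to 6 of the 12 libraries.

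Genes with FPKM of at least 1 in 2 or more of the 4 degron (-) libraries at 4 Gy were kept (12203). FPKM was transformed as log2(FPKM + 1) and fitted with limma 3.58.1 (R 4.3.3) to the 12 libraries with 6 group means, which left 6 residual degrees of freedom, with moderated tests, a mean-variance trend and Benjamini-Hochberg adjustment over all tested genes at 0.05. Contrasts were 48 h minus 30 h in each population and their difference. The fit was checked on simulated data. The 15 largest rises and falls named had no overlap between times and FPKM above 0 in all 4 libraries, the 5 largest differences between populations each way were named, and called members of the gene lists could be named. The members and lists were chosen with earlier results of these data known. Lists are described by counts and medians. Some genes and 1 list are not reported here. Promoters are RefSeq sequences of GRCh38.p14, matched by symbol (8616 of 12203 tested genes), and none of their coordinates were joined to the hg19 values. Same-numbered libraries did not deviate together (correlation of the replicate deviations 0.0131 between 30 h and 48 h). Alternatives were another pseudocount, other filters, quantile and TPM scaling, no trend, a replicate block, fewer libraries and leaving out each library.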

Additional observations from a re-analysis of the deposited data

Results flagged for a closer look

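The change from 30 h to 48 h differed between degron (-) and degron (++) cells for 453 genes past an adjusted p of 0.05 (limma interaction term). The values that follow are the differences of these log2 fold changes, degron (-) minus degron (++), for the genes named above that passed it, and no explanation for them was tested. Among genes of epithelial identity and adhesion they were 1.28 for LY6D, 0.99 for ELF3, 0.96 for KRT7, 0.83 for CDH3, 0.79 for OVOL1, 0.76 for ESRP1, 0.76 for CDH1, 0.72 for GRHL2, 0.69 for EPCAM and 0.66 for DSP. Among basement membrane and integrin genes they were 1.01 for LAMA3, 0.95 for LAMB3, 0.71 for ITGB4 and 0.70 for ITGB6. The mesenchymal genes CDH2, THBS1 and SNAI2 differed by 0.79, 0.67 and 0.60.

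Among secreted defence genes, proteases and inhibitors the difference was 1.32 for TFF1, 1.18 for S100A9, 0.90 for ST14, 0.89 for LCN2, 0.87 for C3 and 0.66 for SPINT1. For signalling molecules it was 0.93 for LTBR, 0.89 for INHBA, 0.87 for ERBB3, 0.83 for F3, 0.82 for TGFA, 0.78 for KLF4, 0.78 for CGA, 0.70 for DUSP4 and 0.63 for BMP4. Interferon-stimulated genes gave 0.99 for OASL, 0.85 for BST2, 0.48 for IFIT3, 0.43 for ISG15 and -0.52 for IFITM2. Amino acid and stress response genes gave 0.82 for STC2, 0.45 for ASNS, 0.36 for ATF4 and 0.27 for HSPA5, and the glucose transporters 0.84 for SLC2A3 and 0.41 for SLC2A1. The 9p21 genes CDKN2A and MTAP differed by 0.64 and 0.62.

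The remaining genes with a positive difference were LETM2 (1.22), ELOVL6 (0.55), DIO2 (0.96), UCA1 (0.92), BRCA1 (0.44) and CDC25B (0.30). Those with a negative difference were RRM2 (-0.24), VMAC (-0.86), TM7SF2 (-0.93) and PRRX2 (-0.96). Genes listed at 0 in both libraries of a group, SLC47A1, TCF7L1 and small RNA genes among them, are left out of these values, since a difference against 0 is no fold.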

How the results depend on the processing

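The count of genes past the threshold in degron (-) cells, 970, was 632 after TPM rescaling (526 higher, 106 lower), 402 with only the 6 degron (-) libraries (326 higher, 76 lower) and 298 with only the 4 libraries compared (259 higher, 39 lower). Leaving out 1 library of the 4 gave 298 to 666 genes, 275 to 594 higher and 23 to 72 lower, where the lone library of a time was assumed to vary like the other groups. The lower genes numbered 100 with a pseudocount of 0.1 and 361 after quantile normalization. In degron (++) cells the 159 genes became 47 after TPM rescaling, 93 without the trend, 56 with only the 8 libraries at 4 Gy and 19 to 38 without 1 library, each of the 4 in turn. The 453 differences between populations became 254 after TPM rescaling, 265 with only the 8 libraries at 4 Gy and 133 to 397 without 1 library. The median of the genes high in degron (++) cells, 0.59, was 0.78 with a pseudocount of 0.1, 0.74 with a filter at FPKM 5 and 0.54 to 0.71 without 1 library. Fewer libraries leave fewer degrees of freedom by construction, and the cause of the other changes was not tested. With the replicate number as a block, 830 genes passed in degron (-) cells (710 rises, 120 falls), 105 did in degron (++) cells, and 361 differed between them. The replicate deviations of the 15 pairs of groups correlated between -0.115 and 0.175, so the numbers were not taken to pair the libraries. For the 119 named genes past the threshold in degron (-) cells, 1305 of 1586 combinations with an alternative kept the call, 281 did not pass it and 0 reversed. These 119 genes were chosen as past the threshold, and their 30 h and 48 h libraries did not overlap. Only the scaling alternatives could therefore have reversed a direction, and the 0 reversals are no evidence of stability. Without read totals, the depth limits of low values are not known.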

Other observations

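Several further gene lists were examined in degron (-) cells at 48 h against 30 h. Over all genes tested 6.53% rose and 1.42% fell. Of 22 tested YAP/TAZ target genes 5 rose and none fell, led by IGFBP3 and ANKRD1. Of 10 tested matrix metalloproteinases and their inhibitors 3 rose, MMP12, MMP14 and TIMP2. Of 19 antigen presentation genes 3 rose, NLRC5, HLA-B and ERAP2, with a median of 0.09, and of 25 cytokine and chemokine genes 4 rose. Of 13 tested cancer stem cell marker genes 5 rose, KLF4, EPCAM, ABCG2, ALDH1A3 and MET. Of these 5 rises 4 were genes higher in degron (++) cells by more than 1 at 0 Gy. In the difference from degron (++) cells 4 of the list were higher and 1 was lower. ABCG2 was the 1 gene of 8 tested drug efflux transporters that rose.

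Other lists held 1 to 8 genes past the threshold, from 5.13% of proteasome subunit genes to 25% of 12 small RNA genes, beside 7.95% of all genes tested. Of 39 proteasome subunit genes 2 rose, PSMA6 and PSME3, with a median of 0.03. Of 74 cytosolic ribosomal protein genes 7 rose and 1 fell, with a median of 0.04, in a family with many processed pseudogenes that share reads. Of 27 NRF2 and glutathione genes 2 rose and 1 fell, of 19 heat shock genes HSPB8 alone rose, of 15 polyamine genes MTAP, SMOX and SAT1 rose, and of 11 iron handling genes LCN2 rose and FTH1 fell. Of 24 immediate early genes 3 rose, of 27 WNT pathway genes 1 rose and 2 fell, and of 12 unstable small RNA genes 2 rose and 1 fell. The small RNA genes that passed were SNORA45, SCARNA7 and SNORD89. Each was at 0 in both 30 h or both 48 h libraries and passed the filter only through the other time. Such a 0 can be a failed estimate, so the share of 25% is not comparable with the others.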
